A study of Homo sapiens with 2 samples.

Results

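The cells described here are 615 cycling CD8B+ T-like cells without RAG transcripts, out of 8929 kept cells of the day 14 library and 21043 kept cells of both libraries of the series (6.89% of the day 14 cells, exact 95% binomial interval 6.37 to 7.43). They came from H1, an established human embryonic stem cell line, taken through 12 days of hematopoietic differentiation with growth factors and then co-cultured on OP9 feeder cells, a mouse bone marrow stromal line that here presented the Notch ligand DLL4. The co-culture lasted 10 days in one library and 14 days in the other, and in both the cells were sorted for the surface protein CD7 before single-cell RNA sequencing with a 3' kit. Each day had 1 library from 1 cell line, so no value below has a replicate and no difference was tested.

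Members were selected on measured values of the same cells. A kept barcode had 1000 to 7000 genes and at most 18% of its unique molecular identifiers (UMIs, the counted molecules) from mitochondrial genes. Of the 8929 kept cells of day 14, 5261 had at least 2 UMIs of CD8B, 1894 of these had no UMI of RAG1 or RAG2, 1755 of these had fewer than 30 UMIs of GNLY, and 645 of these had at least 10 UMIs of MKI67 and TOP2A together. After cells with both CD4 and CD8A were left out, 615 cells remained. The same gate with at most 1 UMI of MKI67 and TOP2A held 648 cells and is called the resting gate, and the 419 cells between the limits (2 to 9 UMIs) form the intermediate gate. The rule therefore fixes that mitotic genes are high in the cycling gate, and the values below describe the difference without supporting it. The cycling cells, from the same library, also held more UMIs, with a median of 25276 UMIs and 4903 genes per cell. The resting gate had medians of 13119 UMIs and 3431 genes. Depth below means the UMIs counted per cell. Since the limits count raw UMIs, the part of depth in gate membership was tested only through the alternatives given at the end. Of 29 kept barcodes present in both libraries, 3 were in the cycling gate and 0 in the resting gate.

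CD8B encodes a chain of the CD8 co-receptor, and RAG1 and RAG2 form the recombinase that cuts T cell receptor genes in the thymus. Thymocytes divide in bursts between rounds of recombination, and RAG2 protein is known to be degraded in dividing cells. MKI67 marks proliferating cells and TOP2A, a topoisomerase that untangles sister DNA, accumulates towards mitosis. GNLY, the cytotoxic protein granulysin, was used to leave out cells of a cytotoxic type.

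The label T-like was checked against marker genes. Of 12 T cell markers, 11 reached 10 CPM (a gene's UMIs per 1000000 UMIs summed over the cells of a gate) in the cycling gate, among them CD3D at 2456 CPM, and the exception was CD2 at 6.01 CPM. The 9 monocyte markers summed to 6.19 CPM in the cycling gate and 8.96 CPM in the resting gate, the 10 erythroid, megakaryocyte and mast cell markers to 2.58 and 1.79 CPM, and the 5 endothelial markers to 0.307 and 0 CPM. The 8 dendritic cell markers summed to 47.1 and 55.2 CPM, of which CD1C, which cortical thymocytes also carry, gave 36.5 and 41.3 CPM. The 6 stromal markers summed to 2.27 and 14.97 CPM and the 6 progenitor markers to 27.0 and 42.5 CPM. The 5 B cell markers summed to 83.6 and 181 CPM, mostly CD79A. The 11 natural killer markers summed to 694 CPM in the cycling and 1292 CPM in the resting gate, mostly NKG7 (597 and 932 CPM), and the 6 markers of type 2 innate lymphoid cells to 84.7 and 151 CPM. In barcodes with 1 to 100 UMIs, taken as the free RNA of the library, the natural killer markers summed to 1529 CPM and the 12 T cell markers to 6325 CPM, against 6189.5 CPM in the cycling and 6694 CPM in the resting gate.

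More genes were over 2-fold higher than over 2-fold lower in the cycling gate. Of 7749 genes with a mean of at least 10 CPM over both gates, outside the 8 genes of the rule, 295 (3.81%) were over 2-fold higher in the cycling gate and 40 (0.516%) were over 2-fold lower, on the scale of log2(CPM + 5). At 1.5-fold, 7.6% were higher and 3.63% lower. The median log2 ratio of all 7749 genes was -0.01, and 6879 lay within 1.5-fold. The errors given below are counting errors, which do not cover the spread between cells or cultures.

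**Figure D1:**
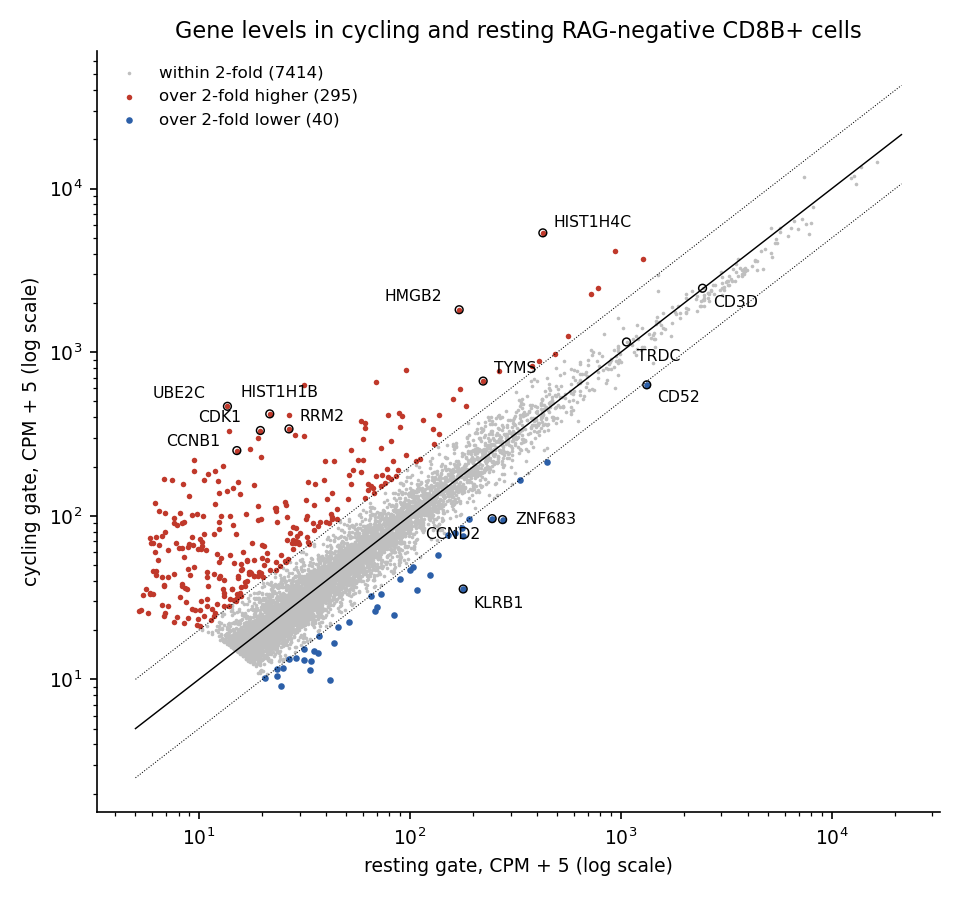
Level of each of 7749 genes in the resting gate (x axis) and the cycling gate (y axis) at day 14, as CPM + 5 on log axes, with 1 point per gene, equality as a solid line and 2-fold differences as dotted lines. The 295 genes over 2-fold higher spread far from the diagonal (UBE2C, 462 against 8.64 CPM), whereas the 40 lower genes lie nearer to it, with KLRB1 the furthest (30.7 against 174 CPM).

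The G2 and mitosis genes stood furthest from equality. All 45 listed genes passed the filter on low values, and 45 of 45 were over 2-fold higher in the cycling gate against 3.81% of all genes, with a median log2 ratio of 3.53 and a range of 2.26 to 5.10. UBE2C, the ubiquitin-conjugating enzyme of the anaphase-promoting complex, had 7532 UMIs or 462 CPM (95% Poisson interval 451 to 472) in the cycling gate and 82 UMIs or 8.64 CPM (6.87 to 10.7) in the resting gate, a log2 ratio of 5.10 with a counting standard error (SE) of 0.10. The gene lies on chromosome 20 from 45812576 to 45816957 on the plus strand of GRCh38. The intermediate gate was closer to the resting gate at 42.0 CPM.

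Mitotic kinases and cyclins followed. CDK1, the kinase that drives entry into mitosis, stood at 327 against 14.5 CPM, and its partner CCNB1 at 245 against 10.1 CPM. The kinases AURKB (214 against 4.43 CPM) and PLK1 (160 against 2.42 CPM), which govern chromosome attachment and spindle assembly, differed by log2 ratios of 4.54 and 4.48. CENPF, CENPA and CENPE, proteins of the centromere and kinetochore, had log2 ratios of 4.33, 4.28 and 3.99. The smallest ratio on the list belonged to ARL6IP1 (418 against 83.5 CPM, log2 2.26). SPC25, a kinetochore subunit outside the list, was also among the 15 highest genes (102 against 1.48 CPM). Transcription factors of this programme differed alike, with FOXM1 at 86.1 against 3.48 CPM and MYBL2 at 98.2 against 11.7 CPM.

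Promoter sequences of genes that moved together are shown for 4 of the leading members of the mitotic and S phase lists. They were taken from RefSeq on GRCh38.p14 as 250 bases before and 50 bases from the annotated start onwards, where 39 of 45 mitotic and 36 of 44 S phase genes had an entry. Capitals mark 3 motifs searched on both strands, the cell cycle homology region (CHR, TTTGAA), the CCAAT box (CCAAT) and the E2F site (TTTGGCGC or TTTCCCGC), none of which contains another. The table gives 1 start per gene, and other starts were not searched. DLGAP5 and ASPM, which act at the mitotic spindle, and RRM2 and TYMS, which make deoxyribonucleotides in S phase, are printed. TYMS was chosen after its values were seen, as the S phase gene with the highest log2 ratio whose window held an E2F match.
DLGAP5 promoter, minus strand of chr14:55191536-55191835: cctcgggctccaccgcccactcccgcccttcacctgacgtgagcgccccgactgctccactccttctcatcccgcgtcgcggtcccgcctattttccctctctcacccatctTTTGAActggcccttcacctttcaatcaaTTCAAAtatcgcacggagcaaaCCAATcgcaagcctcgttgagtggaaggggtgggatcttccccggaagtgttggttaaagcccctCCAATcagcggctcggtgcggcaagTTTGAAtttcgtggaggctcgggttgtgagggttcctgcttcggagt
ASPM promoter, minus strand of chr1:197146620-197146919: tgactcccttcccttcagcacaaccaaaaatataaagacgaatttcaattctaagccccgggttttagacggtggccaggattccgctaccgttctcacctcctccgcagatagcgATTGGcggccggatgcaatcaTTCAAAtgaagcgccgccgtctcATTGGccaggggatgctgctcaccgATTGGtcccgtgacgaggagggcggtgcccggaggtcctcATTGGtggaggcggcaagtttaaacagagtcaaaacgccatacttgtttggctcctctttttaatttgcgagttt
RRM2 promoter, plus strand of chr2:10122489-10122788: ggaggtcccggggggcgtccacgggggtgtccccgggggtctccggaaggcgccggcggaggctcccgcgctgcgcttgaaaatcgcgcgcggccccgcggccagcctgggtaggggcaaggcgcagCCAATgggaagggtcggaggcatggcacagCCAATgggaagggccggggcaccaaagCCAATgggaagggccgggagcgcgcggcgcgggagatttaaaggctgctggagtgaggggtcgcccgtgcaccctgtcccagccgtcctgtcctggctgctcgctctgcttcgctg
TYMS promoter, plus strand of chr18:657403-657702: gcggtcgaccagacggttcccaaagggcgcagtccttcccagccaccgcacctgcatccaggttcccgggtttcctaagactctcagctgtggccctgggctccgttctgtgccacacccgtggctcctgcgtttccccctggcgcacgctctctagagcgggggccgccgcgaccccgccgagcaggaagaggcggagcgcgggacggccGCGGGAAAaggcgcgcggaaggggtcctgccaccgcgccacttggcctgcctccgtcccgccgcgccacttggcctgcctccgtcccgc

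In the DLGAP5 window CHR matches began at -138, -109 and 3 from the annotated start, and CCAAT matches at -87 and -22. In the ASPM window a CHR match began at -113 and CCAAT matches at -134, -90, -65 and -25. The RRM2 window held CCAAT matches at -123, -93 and -66 and no match to the other motifs, and the TYMS window held an E2F match at -39. AURKB and TK1, also leading members, are not printed. The AURKB window (log2 4.54) held a CCAAT match at -153 and no CHR or E2F match. The TK1 window (log2 2.30, above TYMS at 1.58) held no match to any of the motifs. Over the list, 26 of 39 mitotic promoters (66.7%) held the CHR letters, against 1 of 36 S phase promoters (2.78%) and 15.4% of 27305 promoters of the same length. The E2F letters showed the opposite order, with 2 of 39 (5.13%), 17 of 36 (47.2%) and 2.31%. CCAAT was present in 74.4% of mitotic and 63.9% of S phase promoters, and in 35.7% of all. A match describes the letters in the window and does not show that a factor binds there.

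The S phase genes separated into those higher in the cycling gate and those within 1.5-fold of the resting gate. The resting gate was not free of S phase transcripts. In cells thinned to 5000 UMIs, the upper quartile of the S phase list was 17 UMIs per resting cell, and the median was 22 per cycling cell. Of 44 listed genes 42 passed the filter (CCNE1 and EXO1 did not), and 14 were over 2-fold higher, 25 over 1.5-fold higher (against 7.6% of all genes) and 17 within 1.5-fold, with a median log2 ratio of 0.67. The genes that supply nucleotides led. RRM2, the small subunit of ribonucleotide reductase, stood at 335 against 21.7 CPM (log2 3.67, SE 0.08), the thymidine kinase TK1 at 157 against 27.8 CPM, and thymidylate synthase TYMS at 661 against 217 CPM. Among enzymes of nucleotide synthesis outside the list, DTYMK (254 against 68.1 CPM) and DUT (877 against 405 CPM) were over 2-fold higher and 14 of 19 were within 1.5-fold. With gates cut after thinning every cell to 5000 UMIs, 7 of the listed S phase genes were over 1.5-fold higher and 12 lower. At 2-fold, 330 of all 7722 genes were higher with those gates and 133 lower. The shares of all genes past 1.5-fold were not counted there, so these list counts have no background.

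Subunits of the MCM helicase, which unwinds DNA at the fork, were within 1.5-fold between the gates. MCM2 stood at 47.0 against 50.7 CPM, MCM4 at 81.7 against 87.9 CPM, MCM6 at 105 against 108 CPM, MCM3 at 149 against 134 CPM, MCM7 at 204 against 136 CPM (log2 0.56) and MCM5 at 120 against 150 CPM (log2 -0.31, SE 0.05). The factors that load the helicase onto origins were over 1.5-fold higher in the cycling gate, with ORC6 at 85.1 against 29.6 CPM, CDC6 at 41.5 against 20.9 CPM, CDT1 at 107 against 62.3 CPM and ORC1 at 14.4 against 7.27 CPM. With gates cut after thinning, none of the 4 was over 1.5-fold higher, and the log2 ratios of CDC6 and ORC1 were -1.03 and -0.68. The MCM genes were highest in the intermediate gate, where MCM5 reached 242.5 CPM and the helicase subunit GINS2 188 CPM, against 76.3 CPM in the cycling and 75.5 CPM in the resting gate. UNG, a uracil glycosylase of early S phase, was the lowest member of the list in the cycling gate relative to the resting gate (21.2 against 33.2 CPM) and stood at 76.8 CPM in the intermediate gate.

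Levels were also followed over bins of the cells' MKI67 and TOP2A UMIs. These are genes of the rule, so a rise of mitotic genes along the bins follows from the grouping. In 6 bins (0 to 1, 2 to 4, 5 to 9, 10 to 19, 20 to 39 and at least 40 UMIs, with 648, 233, 186, 195, 199 and 221 cells), MCM5 stood at 150, 232, 254, 187, 139 and 60.3 CPM, with its highest value in the bin of 5 to 9. PCNA, the sliding clamp of the replication fork, was also highest there, at 605 CPM, and stood at 186 CPM in the last bin. RRM2 was highest in the bin of 20 to 39 (430 CPM), as was TYMS (767 CPM). UBE2C was higher in each bin than in the one before, at 8.64, 29.3, 55.8, 127, 292 and 810 CPM, and CCNB1 ran from 10.1 CPM in the lowest bin to 402 CPM in the highest. The median depth per cell also differed, from 13119 UMIs in the lowest bin to 28694 in the highest, and its part in these orders was not tested.

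**Figure D2:**
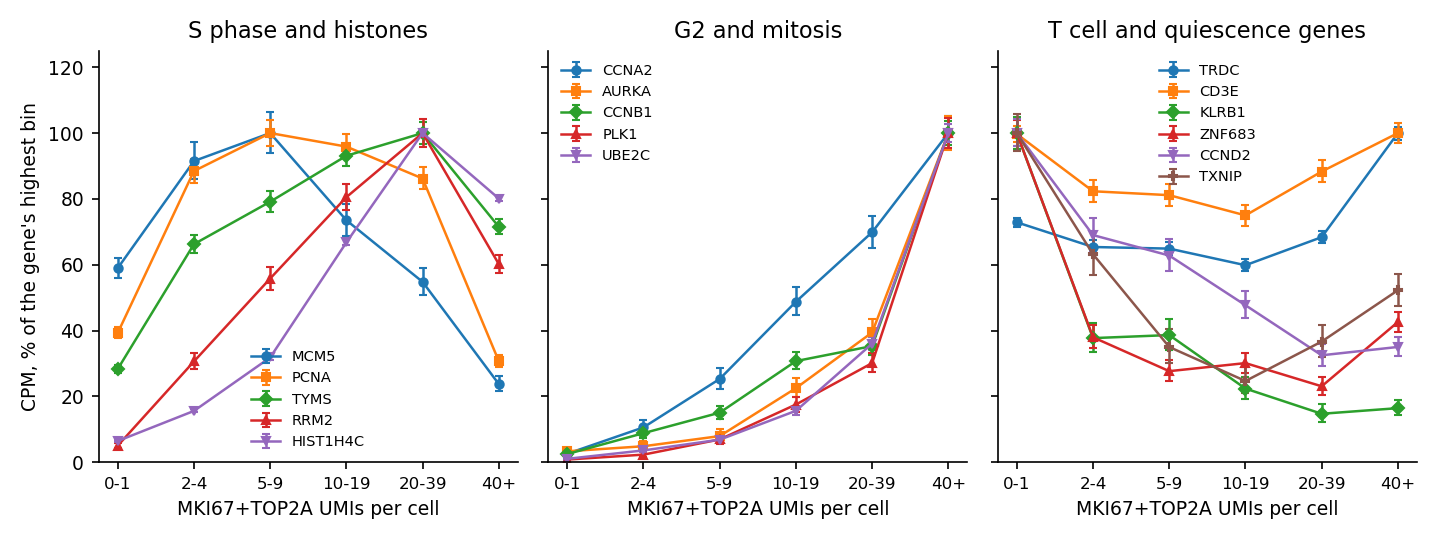
CPM of 16 genes in 6 bins of MKI67 and TOP2A UMIs per cell (x axis), each as a percentage of the gene's own highest bin (y axis), with 95% Poisson intervals as bars. MCM5 and PCNA are highest at 5 to 9 UMIs, TYMS, RRM2 and HIST1H4C at 20 to 39, and the 5 mitotic genes at 40 or more, while KLRB1 is at 174 CPM in the lowest bin and 65.6 CPM in the next.

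Just outside the limit of the rule, 56 cells with 8 to 9 UMIs of MKI67 and TOP2A had 65.7 CPM of UBE2C, 74.0 CPM of CCNB1 and 2097 CPM of the histone HIST1H4C. Just inside it, 48 cells with 10 to 11 UMIs had 95.8, 133 and 3570 CPM of these genes. For these genes both sides lay between the values of the whole resting and cycling gates. PCNA, at 515 CPM outside and 639 CPM inside the limit, was above both whole gates (238 and 398 CPM), and TRDC, at 1023 and 925 CPM, was below both.

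Cells within the cycling gate were not alike. After each cell was thinned at random to 5000 UMIs, which left out 4 of 615 cells, the mitotic list had a median of 47 UMIs per cell with a 5th to 95th percentile range of 17 to 120, and the S phase list a median of 22 with a range of 5 to 45.5. In the resting gate (620 cells after thinning) the medians were 3 and 6 UMIs, and the 95th percentile of the S phase list was 32.05. In the intermediate gate (411 cells) the mitotic median was 12 and the S phase median, at 29, was above that of the cycling gate. The thinned cells had nearly the same number of genes, with medians of 1974 in the cycling, 1941 in the intermediate and 1897.5 in the resting gate.

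**Figure D3:**
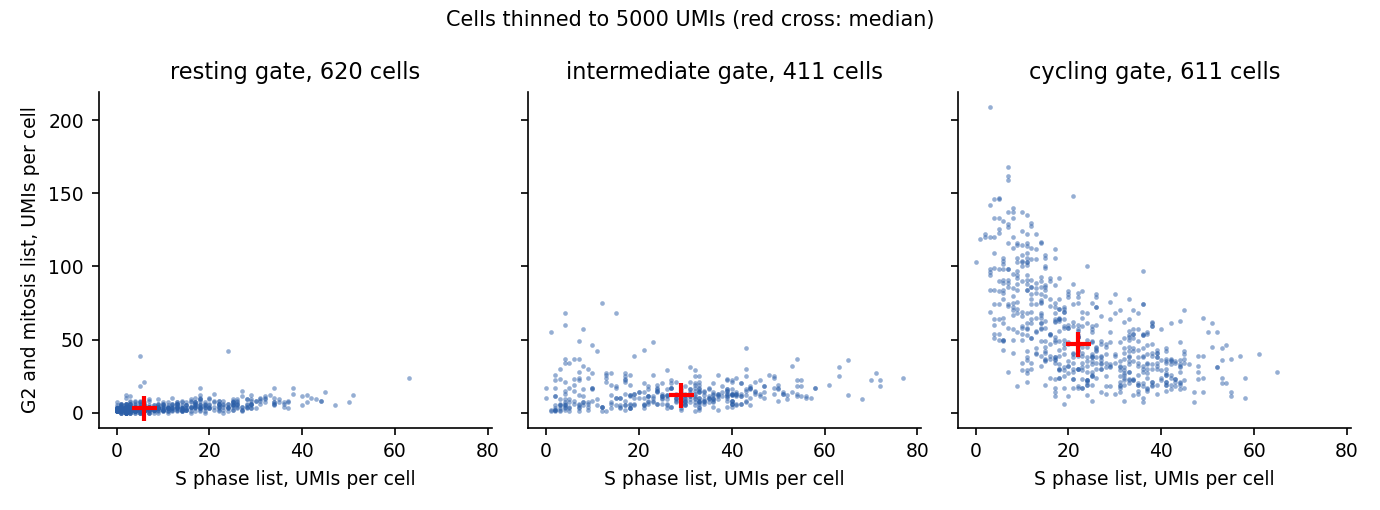
UMIs of the S phase list (x axis) and of the G2 and mitosis list (y axis) per cell after thinning to 5000 UMIs, with 1 point per cell and a red cross at the medians. Resting cells lie along the bottom (median 3 mitotic UMIs), intermediate cells reach further right (median 29 S phase UMIs), and cycling cells run from high S phase values with few mitotic UMIs to the reverse (median 47 mitotic UMIs).

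Histones and chromatin proteins came next. Replication-dependent histones package new DNA and are made in S phase. Of 20 listed genes 14 passed the filter, and 13 of these were over 2-fold higher in the cycling gate (against 3.81% of all genes). The median log2 ratio of the 14 was 2.21. HIST1H4C, a histone H4 gene, stood at 5360 against 422 CPM and the linker histone HIST1H1B at 415 against 16.7 CPM, while HIST1H2AC was at 57.0 and 57.5 CPM. HIST1H4C was highest (6515 CPM) in the bin of 20 to 39 UMIs. Histone genes are near-identical copies whose reads can be split between them, and most of their transcripts lack a poly(A) tail, so these levels cannot be read as amounts of histone RNA. The variant H2AFX was at 302 against 26.5 CPM and H2AFZ at 2277 against 719 CPM, whereas the replacement histones H3F3A (3071 against 2995 CPM) and H3F3B (1251 against 1180 CPM) were close.

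Of 16 genes of chromatin maintenance and DNA methylation, 8 were over 2-fold and 11 over 1.5-fold higher, against 3.81% and 7.6% of all genes. The condensin subunits NCAPG (127 against 4.005 CPM), SMC2 (283 against 76.5 CPM), SMC4 (515 against 156 CPM) and NCAPD2 (111 against 30.04 CPM), which compact mitotic chromosomes, led together with the nuclear lamin LMNB2 (61.3 against 14.9 CPM). The de novo methyltransferase DNMT3B (17.5 against 2.63 CPM) and the lamin LMNB1 (171 against 64.1 CPM) had log2 ratios of 1.56 and 1.35. EZH2, the methyltransferase of Polycomb, stood at 140 against 58.0 CPM and the maintenance methyltransferase DNMT1 at 297 against 219 CPM. The demethylase genes TET1, TET2 and TET3 were within 1.5-fold. HMGB1, a DNA-bending protein that also assists the RAG recombinase, was at 3724 against 1270 CPM, and was the only one of 8 measured recombination and end-joining genes past 1.5-fold. DNTT, the polymerase that adds bases at receptor junctions, was listed at 0 UMIs in every gate and also in the near-empty barcodes of day 14, so a 0 that comes from the counting and absence from the cells cannot be told apart.

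Genes of growth did not separate the gates in the same way. None of 17 measured genes of MYC targets and ribosome biogenesis and none of 18 glycolysis genes was past 1.5-fold, with median log2 ratios of 0.06 and 0.01. Of all 7749 genes, 6879 also lay within 1.5-fold. MYC itself was at 44.9 against 53.2 CPM and was highest, at 84.8 CPM, in the intermediate gate, as were nucleophosmin NPM1 (2184 CPM, against 1903 and 1854 CPM) and ODC1 (100.3 CPM, against 54.7 and 52.2 CPM). Of 15 chaperones 3 were over 1.5-fold higher (against 7.6% of all genes), led by HSP90AA1 (2357 against 1497 CPM). Of 13 mitochondrially encoded genes only MT-ND6 was past 1.5-fold (686 against 443 CPM).

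**Figure D4:**
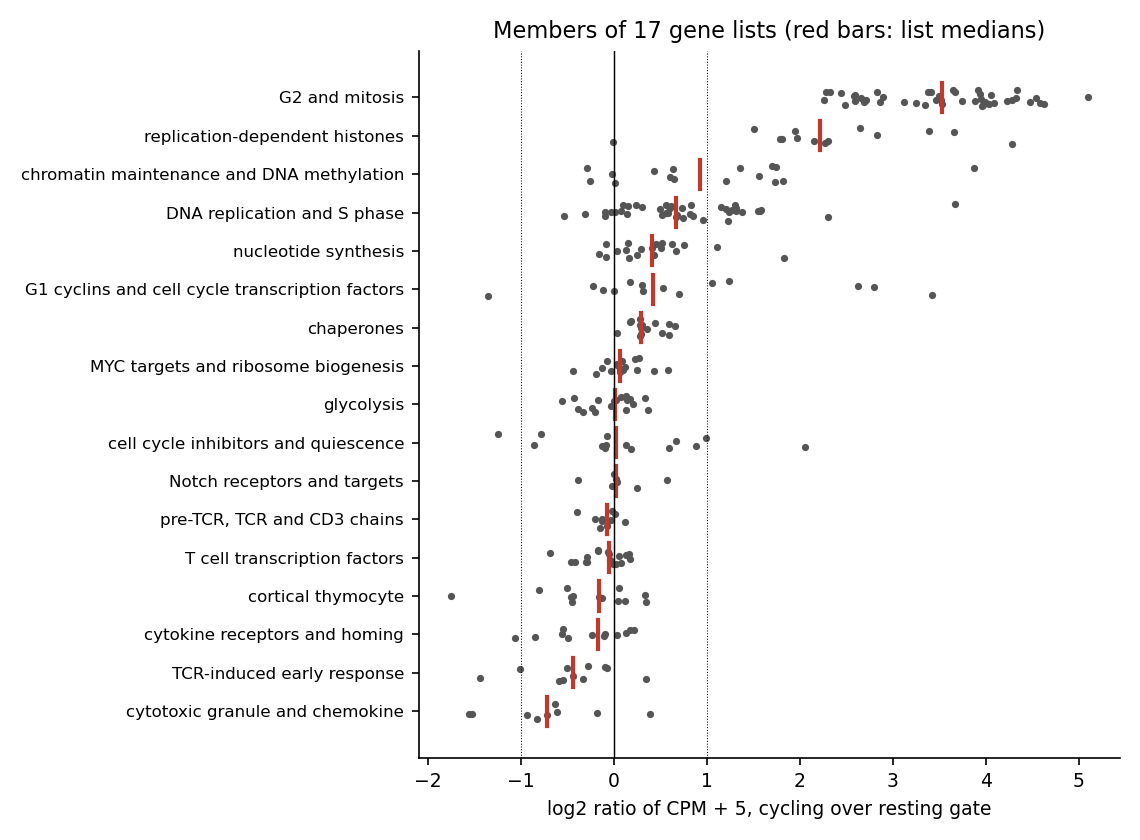
Log2 ratio of CPM + 5 between the cycling and the resting gate (x axis) for each measured member of 17 gene lists (rows), with 1 point per gene, list medians as red bars and 2-fold differences as dotted lines. Mitotic genes lie between 2.26 and 5.10 and histones mostly above 1, growth and T cell receptor lists centre near 0, and the cytotoxic list has its median at -0.72.

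Regulators of the cell cycle were mixed. CCND2, a D-type cyclin that starts the cycle from G1, was lower in the cycling gate, at 91.1 CPM against 159 CPM in the intermediate and 240 CPM in the resting gate (log2 -1.35, SE 0.05), while CCND3, the D cyclin that thymocytes need for division, was at 425 against 344 CPM and CDK6 at 155 in both. Of 14 measured inhibitors and quiescence genes, 5 were over 1.5-fold higher and 3 lower, against 7.6% and 3.63% of all genes. The higher ones included the INK4 inhibitors CDKN2C (40.3 against 5.90 CPM) and CDKN2D (207 against 101 CPM), which bind the kinase partners of D cyclins, and CDKN1B (43.4 against 25.6 CPM). The lower ones were TXNIP, a brake on glucose uptake (52.3 against 131 CPM), and the antiproliferative genes BTG1 (254 against 441 CPM) and BTG2 (107 against 198 CPM). CDKN1A was below the filter at 3.07 and 2.42 CPM. KLF2, a factor of quiescent T cells, was at 148 and 157 CPM.

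The T cell receptor machinery stood at like levels in both gates. None of 11 pre-TCR, TCR and CD3 genes was past 1.5-fold in either direction, with log2 ratios from -0.39 (CD247) to 0.12 (TRDC). Most measured genes were alike in this, with 6879 of all 7749 within 1.5-fold. CD3D stood at 2456 against 2434 CPM, CD3G at 788 against 861 CPM and CD3E at 570 against 636 CPM. TRDC, the constant segment of the receptor delta chain on chromosome 14 (22462932 to 22465787, plus strand), was at 1150 CPM (95% interval 1134 to 1167) in the cycling and 1059 CPM (1038 to 1080) in the resting gate. PTCRA, the surrogate alpha chain of the pre-TCR, was at 78.9 and 83.4 CPM, TRAC at 44.4 and 49.1 CPM, TRBC1 at 374 and 381 CPM, TRBC2 at 416 and 424 CPM, TRGC1 at 179 and 207 CPM and TRGC2 at 31.9 and 33.7 CPM. The paired constant genes TRBC1 and TRBC2, and TRGC1 and TRGC2, are near-identical and their reads can be split between them.

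After thinning, TRDC had a UMI in 585 of 611 cycling cells (95.7%, exact interval 93.8 to 97.2) and 582 of 620 resting cells (93.9%, 91.7 to 95.6), against 99.7% and 97.1% before thinning. TRAC had one in 17.2% and 20.5% of thinned cells, and in 49.9% and 41.2% before thinning. The share with PTCRA was 27.8% and 25.3% after thinning, and 56.9% and 43.5% before. Only 8 thinned cells had at most 1 UMI of the CD3 genes, too few to measure what free RNA alone gives, so these shares have no background value. In the cycling gate 16 cells had both PTCRA and TRAC, where 29.2 would if the genes fell independently, and in the resting gate 18 did, against 32.2. Variable segments gave few UMIs with the 3' kit, which reads the other end of the transcript. In the cycling gate TRGV9 held 491 of 558 TRGV UMIs, while TRAV, TRBV and TRDV segments summed to 29, 4 and 4 UMIs.

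Signaling and lineage genes were also mostly within 1.5-fold, as were 6879 of all 7749 genes. Of 16 measured genes of proximal TCR signaling only THEMIS, which tunes receptor signals in thymocytes, was past 1.5-fold (91.3 against 150 CPM), and its log2 ratio of -0.68 was 0.08 with gates cut after thinning. None of 7 measured Notch genes was past 1.5-fold, and NOTCH1 stood at 101 against 84.5 CPM, NOTCH3 at 55.7 against 54.7 CPM, HES4 at 45.0 against 46.0 CPM, DTX1 at 95.9 against 93.8 CPM, TRIB2 at 38.02 against 38.2 CPM, HES1 at 19.4 against 26.9 CPM and the feedback inhibitor NRARP at 78.4 against 51.3 CPM. HEY1 was listed at 0 UMIs in both gates and at 7.69 CPM in the near-empty barcodes. Of 19 measured T cell transcription factors, 18 were within 1.5-fold. BCL11B, the commitment factor, was at 324 against 290 CPM, TCF7 at 317 against 320 CPM, GATA3 at 252 against 223 CPM, RUNX3 at 283 against 348 CPM, LEF1 at 331 against 446 CPM and ID3 at 321 against 395 CPM. The exception was ZBTB16 (PLZF), a factor of innate-like lymphocytes, at 154 against 250.9 CPM (log2 -0.69, SE 0.04).

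The genes lower in the cycling gate were of another kind. KLRB1, the lectin receptor CD161 of innate-like T and natural killer cells on chromosome 12 (9594551 to 9607916, minus strand), had the lowest ratio among genes with a mean of at least 50 CPM. It had 500 UMIs or 30.7 CPM (28.0 to 33.5) in the cycling gate, 66.4 CPM in the intermediate and 1650 UMIs or 174 CPM (166 to 182.5) in the resting gate, a log2 ratio of -2.33 (SE 0.07). Next came FCER1G, a signaling adaptor (29.98 against 103 CPM), ZNF683 or HOBIT, a factor of tissue-resident lymphocytes (89.8 against 270.0 CPM), and the granzyme GZMM (38.4 against 120 CPM). Of 9 measured genes of cytotoxic granules and chemokines, 7 were over 1.5-fold lower (against 3.63% of all genes) and none higher, among them CTSW (130 against 254 CPM), NKG7 (597 against 932 CPM) and CCL5 (6.44 against 28.8 CPM), while PRF1 (47.0 against 54.1 CPM) and XCL2 (23.0 against 16.3 CPM) were within 1.5-fold. With at least 4 UMIs of CD8B in every cell, 3 of the 9 were lower, and the share of all genes past 1.5-fold was not counted there. The rule capped GNLY in both gates, and GNLY itself stood at 52.3 against 94.96 CPM. In near-empty barcodes KLRB1 was at 166 CPM and ZNF683 at 195 CPM. These values are shares within the free RNA and do not give the amount of free RNA in a cell. The 6 stromal markers, at 2312 CPM in near-empty barcodes, summed to 2.27 CPM in the cycling and 14.97 CPM in the resting gate. The part of free RNA and of natural killer transcripts in these differences was not tested.

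These genes were unevenly spread over cells. The 10% of resting cells with the most KLRB1 held 68.5% of its UMIs, up to 59 in a cell, and in the cycling gate the top 10% held 85%, up to 28. After thinning, 161 of 620 resting cells (26.0%, 22.6 to 29.6) and 49 of 611 cycling cells (8.02%, 5.99 to 10.5) had a KLRB1 UMI, compared with 35.3% and 21.6% before thinning. Cycling cells of the library with at least 5 RAG UMIs had one in 2.61% after thinning and 10.6% before, at a median of 21168.5 UMIs per cell. ZNF683 had one in 39.5% of resting and 21.4% of cycling cells (48.0% and 36.6% before thinning). Along the bins KLRB1 stood at 174, 65.6, 67.2, 38.96, 25.6 and 28.6 CPM and ZNF683 at 270.0, 103, 74.8, 81.4, 62.4 and 115 CPM, so both differed most between the resting bin and the cells with 2 to 4 UMIs of MKI67 and TOP2A.

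Surface and homing genes were also among the lowest. CD52 (627 against 1322 CPM), CD7, the protein used for the sort (208 against 441 CPM), the adhesion receptor CD44 (79.3 against 171 CPM), TNFRSF18 or GITR (36.2 against 85.2 CPM), CD79A (73.8 against 158 CPM) and the adaptors LIME1 (70.7 against 174 CPM) and HCST (160.0 against 328 CPM) were each over 2-fold lower, as were RFLNB (41.7 against 95.2 CPM) and MAD1L1 (43.8 against 98.3 CPM). Of 12 measured cytokine receptor and homing genes 2 were over 1.5-fold lower (against 3.63% of all genes), CD44 and the integrin ITGB7 (29.8 against 57.9 CPM). Among cells with 12000 to 20000 UMIs neither was past 1.5-fold, with log2 ratios of -0.32 for CD44 and -0.57 for ITGB7. IL7R, the receptor of the thymic survival cytokine, was at 185 against 219.5 CPM, CXCR4 at 124.9 against 110 CPM, CXCR3 at 74.1 against 111 CPM, IL2RG at 343 against 369 CPM and ITGAE at 232 against 199 CPM. IL2RA, CCR4 and CCR7 did not pass the filter.

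Of 13 measured cortical thymocyte genes 2 were over 1.5-fold lower (against 3.63% of all genes), the homing receptor CCR9 (19.8 against 78.9 CPM, log2 -1.76) and MAL (67.0 against 121 CPM), whose log2 ratio of -0.81 was -0.18 among cells with 12000 to 20000 UMIs. The measured CD1 genes were within 1.5-fold, with CD1B at 128 against 99.6 CPM, CD1A at 14.1 against 10.1 CPM, CD1E at 508 against 466 CPM and CD1C at 36.5 against 41.3 CPM. Of 11 measured genes on the list of early response to TCR stimulation, 3 were over 1.5-fold lower and none higher, against 3.63% and 7.6% of all genes. Among these was CD27 (4.05 against 19.6 CPM), a costimulatory receptor and not an early response gene in the strict sense. The others were EGR1 (13.4 against 32.1 CPM) and JUNB (66.8 against 103 CPM). Among cells with 12000 to 20000 UMIs JUNB had a log2 ratio of -0.54 and so lay within 1.5-fold. The remaining values included CD69 (146 against 216 CPM), FOS (200.4 against 274 CPM), JUN (118 against 169 CPM), NFKBIA (76.3 against 82.1 CPM) and NR4A1 (12.3 against 8.64 CPM). HLA-E was the single MHC class I gene of 10 measured past 1.5-fold (130 against 231 CPM), and BCL2 (53.9 against 89.4 CPM) and PMAIP1 (95.5 against 61.2 CPM), a survival and a death gene of the same family of regulators, lay on opposite sides. None of 8 measured oncofetal and IGF genes was past 1.5-fold, and 6879 of all 7749 genes were not past it either.

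The cycling cells without RAG were then set beside cycling cells of the same library with at least 5 UMIs of RAG1 and RAG2 (424 cells, and 363 resting cells by the same limit). Of 7689 genes, 75 (0.975%) were over 2-fold higher and 90 (1.17%) over 2-fold lower in the RAG-negative cycling cells, and this difference also follows from the way the gates were cut. GPR183, an oxysterol receptor that guides lymphocytes and was named after its values were seen, was at 246 against 42.8 CPM, KLF2 at 148 against 26.0 CPM, ZNF683 at 89.8 against 16.1 CPM, CTSW at 130 against 27.8 CPM and GATA3 at 252 against 95.2 CPM. On the other side, ARPP21, a thymocyte gene, was at 15.7 against 247 CPM, PTCRA at 78.9 against 402 CPM, MAL at 67.0 against 248 CPM and CD1B at 128 against 366 CPM. TRDC was at 1150 against 643 CPM and TRAC at 44.4 against 12.5 CPM. The mitotic list was lower in the RAG-negative than in the RAG-high cycling cells, with a median log2 ratio of -0.44, and the median MKI67 and TOP2A sum was 29 against 43 UMIs per cell at median depths of 25276 and 21168.5 UMIs.

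**Figure D5:**
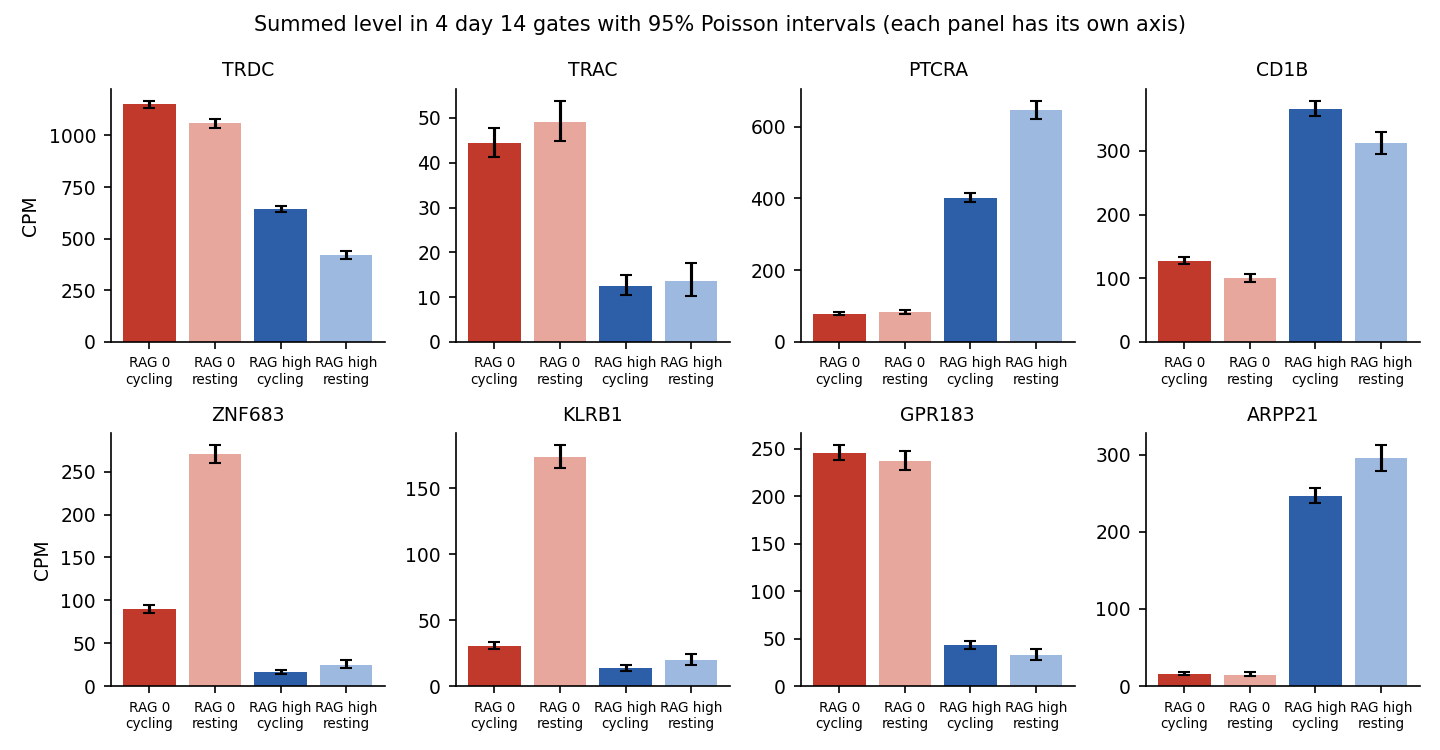
Summed CPM (y axes, a scale per panel) of 8 genes in the cycling and resting gates without RAG UMIs (red) and with at least 5 RAG UMIs (blue) at day 14, with 95% Poisson intervals as bars. TRDC, TRAC and GPR183 are high in both RAG-negative gates and PTCRA, CD1B and ARPP21 in both RAG-high gates, whereas ZNF683 and KLRB1 are highest in the RAG-negative resting gate (270.0 and 174 CPM).

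The ratio of cycling to resting cells was computed in the RAG-high gates in the same way. These gates were cut by the same MKI67 and TOP2A limits, so the rule fixes that mitotic genes are high there too. There 4.67% of 7794 genes were over 2-fold higher and 1.01% over 2-fold lower. Of the 295 genes higher in RAG-negative cycling cells, 293 could be measured, of which 274 were also over 2-fold higher in RAG-high cycling cells and 293 had the same sign. Of the 40 lower genes 28 could be measured, of which 16 were over 2-fold lower and 28 had the same sign. CCND2 (41.7 against 111 CPM), TXNIP (44.3 against 138 CPM) and FCER1G (8.04 against 36.8 CPM) were over 2-fold lower in RAG-high cycling cells too. KLRB1 (13.4 against 19.9 CPM), ZNF683 (16.1 against 25.1 CPM) and GZMM (9.57 and 9.57 CPM) were low in both RAG-high gates and within 1.5-fold of each other on the log2(CPM + 5) scale. The share of all genes with the same sign was not counted. Whether the ratios differ between RAG-negative and RAG-high cells was not tested.

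At day 10 the same gates held few cells, 101 cycling (0.834% of 12114 kept cells) and 50 resting, and CD8B had a median of 2 UMIs in both. Of 2874 genes with a mean of at least 50 CPM there, 3.06% were over 2-fold higher and 0.557% lower. Of 151 genes called higher at day 14 that could be measured, 80 were over 2-fold higher at day 10 and 150 had the same sign, and of 11 genes called lower, 2 and 10. UBE2C stood at 618 against 20.4 CPM, CCNB1 at 461 against 33.0 CPM and HIST1H4C at 1569 against 330.3 CPM. KLRB1 (1.24 and 4.72 CPM) and ZNF683 (19.8 and 22.02 CPM) were low in both day 10 gates. The day 10 gates were cut by the same MKI67 and TOP2A limits, so high mitotic genes follow from the rule there as well. The share of all genes with the same sign was not counted. The days are separate libraries, so time and library cannot be told apart.

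The direction of the leading values held when cells of like depth were compared, but sizes moved. Among cells with 12000 to 20000 UMIs (135 cycling, 265 resting), the log2 ratio of UBE2C was 4.99 and of HIST1H4C 4.25, KLRB1 stood at -1.60, ZNF683 at -0.83, CCND2 at -2.26 and CD44 at -0.32. In that window 17 of the 40 lower genes had a 2-fold difference against 286 of the 295 higher genes. With both gates cut after thinning, 14 of the 40 and 232 of the 295 did.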

How the data were processed

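Single-cell 3' libraries of CD7-sorted cells after 10 and 14 days on OP9 feeders were used, 1 per day. The deposited matrices held raw UMI counts for every barcode, made by the authors with Cell Ranger 4.0.0 on GRCh38, per the submitters' processing notes, which also name Seurat. They held 3229665 barcodes with 169758367 UMIs at day 14 and 2759529 barcodes with 217681173 UMIs at day 10, over 36601 genes.

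The cell filter was 1000 to 7000 detected genes with mitochondrial genes giving 18% of UMIs or less, which passed 8929 barcodes at day 14 (median 15029 UMIs) and 12114 at day 10 (median 16173.5). No doublet caller was run, and 80 cycling and 5 resting cells had over 6000 genes. The members and the gene lists were chosen with earlier results of these data known. Each gene's UMIs were added up per gate, scaled to CPM and given exact 95% Poisson intervals, which cover counting error only. Log2 ratios used a pseudocount of 5 CPM, and genes needed a mean of 10 CPM over both gates (50 CPM at day 10). The 8 genes of the rule were left out. Cells are not replicates and each day had 1 library, so no test was run. Named are the genes of the rule, the 15 highest and 15 lowest ratios with a mean of at least 50 CPM, and members of the 24 lists with the largest ratios or, for the receptor, Notch, transcription factor, early response, inhibitor, cortical and homing lists, every member where it was described. Other members named in the text, such as MCM2 or NPM1, were chosen after their values were seen, and 1 listed gene is not reported here by itself. The calculation was tested on simulated counts. Analyses used Python 3.11.15, numpy 2.4.6, scipy 1.17.1, pandas 2.3.3 and matplotlib 3.10.9.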

Additional observations from a re-analysis of the deposited data

Results flagged for a closer look

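Among 2512 genes with a mean of at least 50 CPM on both days, 2 were past 1.5-fold in opposite directions between cycling and resting cells on day 14 and day 10. CHAF1A, a subunit of the histone chaperone CAF-1, had a log2 ratio of 0.82 (SE 0.08) at day 14 and -0.60 (SE 0.19) at day 10, a difference of 1.423, and the day 14 value was -0.0158 with gates cut after thinning. ORAI1, a calcium channel subunit, had -0.63 (SE 0.06) at day 14 and 0.60 (SE 0.26) at day 10, a difference of -1.227. Neither difference was tested, since each day had 1 library and day 10 had 101 cycling and 50 resting cells. COL1A1, a stromal collagen, stood at 1349.5 CPM in the near-empty barcodes of day 14 and at 0.184 CPM in the cycling gate. No group had enough samples for an outlier to be looked for.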

How the results depend on the processing

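No paired analysis was possible because each day had 1 library and both gates were cut from the same one. Under 14 alternatives the number of genes over 2-fold higher ranged from 270 to 376 and stayed within 1.5 times 295. The number over 2-fold lower, 40 here, was 79 with a pseudocount of 1 CPM, 133 with gates cut after thinning to 5000 UMIs and 61 among cells with 12000 to 20000 UMIs. It lay between 29 and 56 under the others. The number of cells in the cycling gate was 193 after thinning, 135 between 12000 and 20000 UMIs, 400 with at least 4 UMIs of CD8B, and 248 without cells with 3 or more UMIs of monocyte, dendritic, erythroid, type 2 innate lymphoid or progenitor markers, in each case by the setting's own construction.

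Of 153 listed or named genes past 1.5-fold, between 115 and 153 stayed past it in the same direction under each alternative. Signs turned under 3 settings, and the cause was not tested. With gates cut after thinning, whose resting gate held 724 cells, the log2 ratios turned to -0.53 for PCNA, -1.03 for CDC6, -0.68 for ORC1, -0.42 for RFC4, -0.0636 for CLSPN, -0.0871 for UHRF1, -0.0158 for CHAF1A, -0.11 for CDC25A and 0.0827 for THEMIS. With at least 4 UMIs of CD8B, GZMA was at 0.19, CCL4 at 1.12 and XCL1 at 0.0687, and with fewer than 5 UMIs of GNLY, CCL4 was at 0.10. The S phase list had 25 genes over 1.5-fold higher and 0 lower, but 7 and 12 after thinning, and the cytotoxic list 7 lower but 3 with at least 4 UMIs of CD8B. The shares of all genes past 1.5-fold under these settings were not counted.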
